A study of Mus musculus with 8 samples.

Results

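The PPAR and fatty acid oxidation genes are the peroxisome proliferator-activated receptors, their coactivators and genes of fatty acid uptake, activation, oxidation and storage. Members were the array probes whose RefSeq accession named 1 of 45 listed symbols. All 45 had a probe, of 20660 genes with a named probe in all, and 39 passed the filter on dim probes, of 14035 genes tested. The list was given by name, not by a rule on measured values. It was, like the further lists, chosen with earlier results of these data known.

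RNA came from BMEL cells, a bipotential line of liver progenitors from mouse embryos, which can be led towards hepatocytes or bile duct cells. The cells were kept in 1 of 3 media, with 3 arrays for the medium labelled NoRX, 3 for CM and 2 for DIFF. The title of the series asks how such cells respond to medium conditioned by epithelial cells of the human amnion. What the labels NoRX, CM and DIFF stand for, what the media held and how long the cells were in them were not given in the sources used here, and the cells are a single line. The labels do not say whether arrays of a group stem from cultures grown apart. The p-values therefore rest on the spread between these arrays, which may be technical.

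The receptors PPARα (gene Ppara), PPARγ (Pparg) and PPARδ (Ppard) are nuclear receptors that bind fatty acids and act as pairs with RXR. In the adult liver PPARα drives fatty acid oxidation in fasting, PPARγ is best known for fat storage in adipocytes, and PPARδ is widely expressed. A fatty acid enters through carriers, is bound by small cytosolic proteins, is joined to coenzyme A, and is then stored in droplets, shortened in peroxisomes, or carried by carnitine into mitochondria and oxidised.

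PPAR and RXR pairs bind a direct repeat of AGGTCA-like hexamers with 1 base between them, named DR1. The 250 bases before the annotated start were read from the RefSeq promoter table of assembly GRCm38.p6 for 37 members, with 45 windows, and 8 members had no entry. The letters AGGNCANAGGNCA were searched on both strands. They were in 111 of 32851 promoter windows of all genes (0.338%) and in 1 of the 45 windows of members, that of Fabp1, where the match TGACCTATGGCCT lay on the opposite strand and began 67 bases before the start. The single hexamer AGGTCA, which can be part of a DR1 and is part of the one in Fabp1, was in 4607 windows (14.0%). It was in 11 of the 45 windows of members, those of Acadm, Acadvl, Acot4, Cd36, Cpt1a, Fabp1, Plin2, Plin5, Pparg and Slc27a2. A match describes letters and is no evidence of binding, and a window without a match says nothing of sites elsewhere. The window of Fabp1 is shown with its DR1 in capitals (chr6:71199629-71199878, plus strand). Those of Cd36 (chr5:17835897-17836146, minus strand, 1 of its starts), Acadvl (chr11:70015429-70015678, minus strand) and Pparg (chr6:115362099-115362348, plus strand, 1 of its starts) are shown with the hexamer in capitals, as examples of an uptake gene, an oxidation gene and a receptor gene whose level differed in all 3 comparisons below. The calls of Acadvl against NoRX and that of Pparg in CM against NoRX were lost under some alternatives given below.
Fabp1: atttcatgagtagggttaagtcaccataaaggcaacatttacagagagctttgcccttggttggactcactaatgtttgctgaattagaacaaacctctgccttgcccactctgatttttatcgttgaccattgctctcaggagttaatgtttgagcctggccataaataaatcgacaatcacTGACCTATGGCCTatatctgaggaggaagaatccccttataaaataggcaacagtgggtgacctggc
Cd36: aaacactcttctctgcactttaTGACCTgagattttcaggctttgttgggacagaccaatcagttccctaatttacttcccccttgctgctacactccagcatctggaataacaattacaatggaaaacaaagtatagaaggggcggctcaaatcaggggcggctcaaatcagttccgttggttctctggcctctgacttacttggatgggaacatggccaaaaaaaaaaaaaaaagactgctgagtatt
Acadvl: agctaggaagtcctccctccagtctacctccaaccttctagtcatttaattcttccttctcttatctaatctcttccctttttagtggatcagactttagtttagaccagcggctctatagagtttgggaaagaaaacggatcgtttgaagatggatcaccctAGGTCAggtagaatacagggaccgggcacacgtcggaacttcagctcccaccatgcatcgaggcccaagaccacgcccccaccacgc
Pparg: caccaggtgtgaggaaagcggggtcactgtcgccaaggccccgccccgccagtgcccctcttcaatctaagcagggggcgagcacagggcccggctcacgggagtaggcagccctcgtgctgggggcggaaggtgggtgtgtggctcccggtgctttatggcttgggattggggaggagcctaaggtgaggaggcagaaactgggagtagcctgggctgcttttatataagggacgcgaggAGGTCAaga

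A level here is the log2 of a probe's processed signal minus the array's 75th percentile, so that levels of 1 probe can be compared between arrays but not between probes. Differences are log2 differences between group means with their SE, and a gene is called changed at an adjusted p of at most 0.05 (limma, Benjamini-Hochberg over all 14035 genes). The share of spots well above background was 50.8% to 53.5% on 7 arrays and 46.4% on DIFF replicate 2, where the local background was uneven at 1159 spots (3 to 90 elsewhere). The correlation across genes between arrays of the same group was 0.9935 to 0.9942 for NoRX, 0.9908 to 0.9929 for CM and 0.9603 for DIFF. All 39 tested members were higher on DIFF replicate 1 than on DIFF replicate 2, by 0.10 to 0.45 with a median of 0.29. This gap was common to most genes (13036 of 14035 higher, median 0.26). By slide row, row 1 held NoRX and CM replicate 1, and row 2 held CM replicates 2 and 3 and DIFF. No row held both NoRX and DIFF, so that row and group cannot be told apart within a row for that pair. The comparisons of CM and of DIFF with NoRX share the NoRX arrays, and their values are given side by side.

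Genes of the list moved in opposite directions, and its median lay close to that of all genes in each comparison. In CM against NoRX, 14 members were higher and 10 lower, against 26.9% and 25.3% of all genes, and 15 did not pass. The 24 changed members were 61.54% of those tested, against 52.2% of all genes, and the median log2 difference was 0.02, against 0.01. In DIFF against NoRX, 15 were higher and 12 lower, against 14% and 28.1% of all genes. The 27 changed members were 69.23%, against 42.1%, and the median was -0.10 for members and for all genes. In DIFF against CM, 11 were higher and 16 lower, against 23.6% and 35.6% of all genes. The 27 changed members were again 69.23%, against 59.2%, with medians of -0.10 and -0.11.

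Fewer members changed at least 2-fold. They were 5 in CM against NoRX (12.82%, against 11.4% of all genes), 8 in DIFF against NoRX (20.51%, against 12.5%) and 13 in DIFF against CM (33.33%, against 20.3%). Groups did not overlap for 29, 30 and 28 members, which is 74.36%, 76.92% and 71.79%, against 71%, 57.2% and 68.5% of all genes. All these counts include Cd36 in the comparisons with NoRX and Fgf21 in those with CM. Both passed the filter only through the groups where they were bright, so that their part of the counts is no separate result. With each array centred on its median the calls became 11 higher and 6 lower in CM against NoRX, 15 and 8 in DIFF against NoRX, and 13 and 8 in DIFF against CM. Over all genes that centring gave 3001 higher and 3091 lower in CM against NoRX, in place of 3776 and 3552, 2400 higher and 2133 lower in DIFF against NoRX, in place of 1961 and 3947, and 3936 and 3184 in DIFF against CM, in place of 3315 and 4990. It moved the median of all genes from -0.10 to 0.05 in DIFF against NoRX and from -0.11 to 0.06 in DIFF against CM.

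Among the regulators, the gene of PPARα moved against those of PPARγ and PPARδ in each comparison. Ppara had levels of -0.51, -0.49 and -0.44 on the NoRX arrays, -1.61, -1.79 and -1.60 on the CM arrays, and 1.71 and 1.36 on the DIFF arrays. The groups did not overlap, with DIFF highest and CM lowest. Ppara was thus 2.28-fold lower in CM than in NoRX (-1.19 ± 0.10, adjusted p = 3.36e-06), 4.04-fold higher in DIFF than in NoRX (2.01 ± 0.11, adjusted p = 9.98e-08) and 9.21-fold higher in DIFF than in CM (3.20 ± 0.11, adjusted p = 1.34e-09), by limma. Of its other probes, 1 gave -1.25, 2.29 and 3.55 in these comparisons and 1 gave -0.08, 0.57 and 0.65, so that the size of the change depends on the probe.

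Pparg showed the reverse order. Its levels were 5.93, 5.97 and 5.95 in NoRX, 6.23, 6.26 and 6.22 in CM, and 5.01 and 4.78 in DIFF, with an uneven spot on DIFF replicate 2. It was 1.22-fold higher in CM than in NoRX (0.29 ± 0.07, adjusted p = 0.00482), a call that was lost with slide row as a block (0.28, adjusted p = 0.0798) and with median centring (0.28, adjusted p = 0.0516). It was 2.08-fold lower in DIFF than in NoRX (-1.05 ± 0.08) and 2.54-fold lower in DIFF than in CM (-1.34 ± 0.08). Ppard had levels of 2.60, 2.66 and 2.72 in NoRX, 3.32, 3.34 and 3.31 in CM, and 2.08 and 1.63 in DIFF. The groups stood in the same order as for Pparg, without overlap, with a 1.58-fold rise in CM (0.66 ± 0.10, adjusted p = 0.000251) and a 1.75-fold fall in DIFF (-0.81 ± 0.11, adjusted p = 0.000158) against NoRX. DIFF lay 2.77-fold below CM (-1.47 ± 0.11).

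The coactivator PGC-1α, encoded by Ppargc1a, is known to raise mitochondrial number and oxidation. Its gene had levels of -0.57, -0.67 and -0.65 in NoRX, -0.54, -0.64 and -0.75 in CM, and 0.71 and 0.26 in DIFF. NoRX and CM overlapped (-0.01 ± 0.11, adjusted p = 0.941), and both DIFF arrays were above all others, 2.17-fold over NoRX (1.12 ± 0.13, adjusted p = 3.33e-05) and 2.19-fold over CM (1.13 ± 0.13, adjusted p = 1.74e-05). Its relative Ppargc1b had levels of -2.05, -2.12 and -1.99 in NoRX, -2.50, -2.67 and -2.62 in CM, and -2.16 and -2.61 in DIFF. It was 1.46-fold lower in CM than in NoRX (-0.54 ± 0.14, adjusted p = 0.00782), which was lost with slide row as a block (-0.44, adjusted p = 0.136). The DIFF arrays were 0.45 apart, as they were for Ppard and Ppargc1a. DIFF passed neither against NoRX (-0.33 ± 0.16, adjusted p = 0.124) nor against CM (0.22 ± 0.16, adjusted p = 0.267). Without DIFF replicate 1 the difference from NoRX passed (-0.55), and without DIFF replicate 2 that from CM did (0.44), as it did with median centring (0.39) and the normexp background (0.42).

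**Figure D1:**
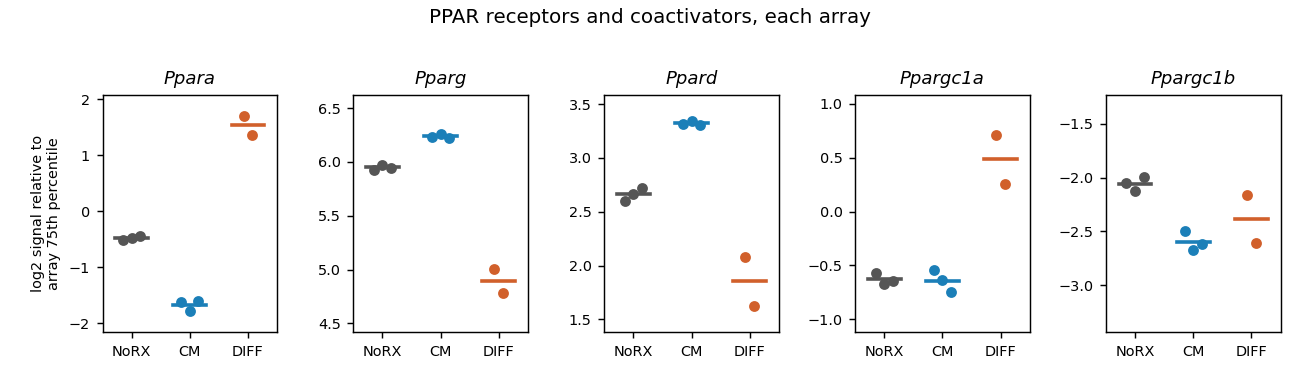
Level of each regulator gene on each array, as log2 signal relative to the array's 75th percentile, with points for arrays, bars for group means and a scale of its own in each panel. Ppara was highest in DIFF and lowest in CM, while Pparg and Ppard were highest in CM and lowest in DIFF.

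RXRα, a partner of all 3 receptors, is no member of the list, and its gene Rxra is named here after its values were seen. The other RXR genes, Rxrb and Rxrg, had mean levels of 4.62 and 2.94 in NoRX, 4.69 and 3.00 in CM, and 4.79 and 2.68 in DIFF. The levels of Rxra were -1.11, -1.14 and -1.07 in NoRX, 0.52, 0.65 and 0.50 in CM, and -1.25 and -1.65 in DIFF. CM stood above both other groups, 3.17-fold over NoRX (1.66 ± 0.11, adjusted p = 4.14e-07). DIFF was 4.03-fold below CM (-2.01 ± 0.12), and lower than NoRX by a smaller margin (-0.35 ± 0.12, adjusted p = 0.0366) that was lost when any of 7 single arrays was left out, at -0.36 to -0.15, and kept only without DIFF replicate 1.

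Of the 2 secreted factors, Fgf21 encodes a hormone that the liver releases in fasting. Its levels were -2.80, -4.33 and -4.49 in NoRX, -7.12, -4.99 and -7.59 in CM, and -4.09 and -4.19 in DIFF. It was well above background on all NoRX and DIFF arrays and on no CM array, so that its differences are bounds. For a bound, each array of the dim group was given the lowest signal called well above background there, or the gene's own signal where that was higher, and the mean was set against that of the bright group. Fgf21 was at least 2.25-fold lower in CM than in NoRX and at least 1.87-fold higher in DIFF than in CM, while NoRX and DIFF overlapped (-0.27 ± 0.73, adjusted p = 0.798). It passed the filter only through NoRX and DIFF. Its adjusted p in the comparisons with CM (0.00509 for NoRX and 0.0143 for DIFF, limma) belong to fitted differences from background signals, not to the bounds. The DIFF against CM call was lost without either DIFF array, at fitted differences of 2.38 and 2.48 and adjusted p of 0.0602 and 0.0542, with array weights (adjusted p = 0.435) and with the DIFF arrays averaged to 1 sample (adjusted p = 0.0585). With the normexp background the log2 differences were -0.85 in CM against NoRX and 1.04 in DIFF against CM, the former under the bound. Angptl4, whose product inhibits lipoprotein lipase, ranged from 6.05 to 6.10 in NoRX, 6.23 to 6.36 in CM and 5.60 to 5.72 in DIFF, and was 1.57-fold lower in DIFF than in CM (-0.65 ± 0.07, adjusted p = 1.73e-05).

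The genes of uptake and binding held Cd36 and Fabp4, the members with the largest fitted differences in DIFF against NoRX. Of 9, 7 were tested, and 4 were higher and 1 lower in CM against NoRX (median 0.25) and likewise 4 and 1 in DIFF against NoRX (median 0.74). Of all genes, 26.9% and 25.3% were higher and lower in CM, and 14% and 28.1% in DIFF. In DIFF against CM 3 were higher and 2 lower (median -0.05), against 23.6% and 35.6%. Cd36, the gene of a membrane carrier of long-chain fatty acids, had levels of -7.21, -6.37 and -6.94 in NoRX, -3.71, -4.00 and -3.82 in CM, and -0.59 and -0.96 in DIFF. It was well above background on no NoRX array and on all arrays of the other groups, and no groups overlapped. By these bounds Cd36 was at least 2.24-fold higher in CM and at least 18.7-fold higher in DIFF than in NoRX. The gene passed the filter only through CM and DIFF. Its adjusted p against NoRX (5.77e-06 for CM and 4.19e-08 for DIFF, limma) belong to fitted differences from background signals, not to the bounds. Between CM and DIFF, where it was above background, Cd36 was 8.37-fold higher in DIFF (3.07 ± 0.31, adjusted p = 6.59e-06). The bounds hold for the signals as processed in the files, and with the normexp background the log2 differences from NoRX were smaller, at 0.69 in CM and 2.91 in DIFF.

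Fabp1 encodes the fatty acid binding protein of the liver. Its levels were -1.50, -1.82 and -2.16 in NoRX, 0.84, 0.26 and 0.70 in CM, and 0.68 and 0.29 in DIFF. CM and DIFF overlapped (-0.11 ± 0.21, adjusted p = 0.67) and both lay above NoRX, 5.36-fold in CM (2.42 ± 0.19, adjusted p = 1.53e-06) and 4.96-fold in DIFF (2.31 ± 0.21, adjusted p = 4.55e-06). It is the member with the DR1 letters in the window shown above.

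Fabp4, of the adipocyte form, had levels of -0.35, 0.04 and -0.54 in NoRX, 0.24, 0.31 and 0.42 in CM, and 3.16 and 2.88 in DIFF. DIFF was 9.87-fold above NoRX (3.30 ± 0.15, adjusted p = 1.88e-08) and 6.48-fold above CM (2.70 ± 0.15, adjusted p = 5.7e-08). The smaller rise in CM (1.52-fold, 0.61 ± 0.14, adjusted p = 0.00306) was lost with slide row as a block (0.52, adjusted p = 0.0614) and within row 1 (0.52, adjusted p = 0.0909). Fabp5, of the epidermal form, had levels of 7.15, 7.19 and 7.08 in NoRX, 6.82, 6.71 and 6.82 in CM, and 8.01 and 7.75 in DIFF, with an uneven spot on DIFF replicate 2. No groups overlapped. Fabp5 was 1.67-fold higher in DIFF than in NoRX (0.74 ± 0.09, adjusted p = 4.82e-05) and 2.14-fold higher than in CM (1.09 ± 0.09, adjusted p = 1.09e-06). It was 1.28-fold lower in CM than in NoRX (-0.36 ± 0.08, adjusted p = 0.0028), which was lost with slide row as a block (-0.32, adjusted p = 0.0691).

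The other carriers differed less or could not be tested. The fatty acid transport protein gene Slc27a4 passed in no comparison, at -0.10 to -0.05. Slc27a2 was well above background on DIFF replicate 2 alone (-2.75, against -7.60 on DIFF replicate 1), and Lpl, the gene of lipoprotein lipase, on no array.

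Genes of acyl-CoA synthesis, whose enzymes activate fatty acids, were each changed in CM and in DIFF against NoRX, but not in the same way. Acsl1 had levels of 2.95, 2.89 and 2.77 in NoRX, 3.62, 3.63 and 3.63 in CM, and 2.30 and 2.09 in DIFF. It was 1.69-fold higher in CM (0.75 ± 0.08, adjusted p = 1.2e-05) and 1.59-fold lower in DIFF (-0.67 ± 0.09, adjusted p = 7.57e-05) than in NoRX, and 2.69-fold lower in DIFF than in CM (-1.43 ± 0.09, adjusted p = 9.44e-08). Acsl4, whose enzyme prefers arachidonic acid, was higher in both, 1.64-fold in CM (0.71 ± 0.08) and 1.60-fold in DIFF (0.67 ± 0.09), and CM and DIFF overlapped. Acsl5 was 1.42-fold lower in DIFF than in NoRX (-0.51 ± 0.08, adjusted p = 0.000377). Its call in CM (-0.20) was lost when any of the 6 compared arrays was left out. The further acyl-CoA synthetase genes Acsl3 and Acsbg1 are no members, are given below, and are not in the medians of this step.

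The genes of the carnitine shuttle and of mitochondrial beta-oxidation differed by -0.73 to 0.67 in the 3 comparisons. Of 17 mitochondrial members 16 were tested. In CM against NoRX 3 were higher and 4 lower (median -0.02), against 26.9% and 25.3% of all genes. In DIFF against NoRX the counts were 6 and 5 (median -0.04), against 14% and 28.1%. In DIFF against CM they were 4 and 5 (median -0.09), against 23.6% and 35.6%. In the shuttle, Slc25a20, of the carrier that exchanges acylcarnitine for carnitine, was 1.59-fold higher in DIFF than in NoRX (0.67 ± 0.12, adjusted p = 0.000794). Cpt2, of the inner membrane enzyme, was 1.39-fold lower there (-0.48 ± 0.10, adjusted p = 0.00283, and -0.31 without DIFF replicate 2) and Crat, of carnitine acetyltransferase, 1.61-fold lower (-0.69 ± 0.16, adjusted p = 0.00585). Both were lost with slide row as a block (-0.51, adjusted p = 0.0812, and -0.53, adjusted p = 0.263), and Cpt2 also with median centring (-0.32, adjusted p = 0.0892). Crat was further lost with array weights (-0.68, adjusted p = 0.174) and at -0.06 with the normexp background (adjusted p = 0.806). Cpt1a, of the outer membrane enzyme that sets the rate of entry, ranged from 4.43 to 4.76 over all 8 arrays and passed in neither comparison with DIFF.

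Of the 9 genes of the oxidation spiral, 1 was higher and 2 lower in CM against NoRX, 3 and 2 in DIFF against NoRX, and 2 and 1 in DIFF against CM. The shares of all genes are those given for the mitochondrial members. The differences lay between -0.68 and 0.57 in all 3 comparisons. Acadl, Hadh, Hadha and Hadhb, of the long-chain dehydrogenase, the short-chain hydroxyacyl dehydrogenase and both subunits of the trifunctional protein, passed in none. Acaa2, of the last thiolase step, ranged from 5.26 to 5.28 in NoRX, 5.83 to 5.85 in CM and 5.49 to 5.71 in DIFF, and was 1.49-fold higher in CM (0.57 ± 0.07, adjusted p = 4.1e-05). Its rise in DIFF against NoRX (0.33 ± 0.08) was lost with slide row as a block (0.32, adjusted p = 0.173) and with the normexp background (0.25, adjusted p = 0.157). Decr1, of the reductase needed for unsaturated fatty acids, ranged from 5.50 to 5.56 in NoRX, 4.90 to 5.01 in CM and 4.76 to 4.93 in DIFF. It was 1.47-fold lower in CM (-0.56 ± 0.07, adjusted p = 4.81e-05) and 1.60-fold lower in DIFF (-0.68 ± 0.08, adjusted p = 2.93e-05), the latter -0.35 as the mean of its probes. Acadvl, of the very long-chain dehydrogenase, was 1.48-fold higher in DIFF than in CM (0.57 ± 0.09, adjusted p = 0.00019). Its rise against NoRX (0.36 ± 0.09, and 0.24 without DIFF replicate 1) was lost with slide row as a block (0.48, adjusted p = 0.057) and with array weights (0.36, adjusted p = 0.0797).

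The larger mitochondrial differences lay outside the spiral. Bdh1, of the enzyme that interconverts the ketone bodies acetoacetate and hydroxybutyrate, had levels of 2.10, 2.12 and 1.89 in NoRX, 2.02, 1.93 and 2.07 in CM, and -0.25 and -0.50 in DIFF. NoRX and CM overlapped (-0.03 ± 0.09, adjusted p = 0.799), and DIFF was 5.33-fold below NoRX (-2.42 ± 0.10, adjusted p = 1e-08) and 5.22-fold below CM (-2.38 ± 0.10, adjusted p = 5.72e-09). Ucp2, of an uncoupling protein of the inner membrane, had levels of -3.00, -2.84 and -3.26 in NoRX, -1.35, -1.40 and -1.32 in CM, and -2.42 and -2.74 in DIFF. It was highest in CM, 3.19-fold over NoRX (1.68 ± 0.14, adjusted p = 3.65e-06) and with DIFF 2.33-fold below CM (-1.22 ± 0.16, adjusted p = 5.97e-05, and -0.64 with the normexp background). Its rise in DIFF against NoRX (0.45 ± 0.16, adjusted p = 0.0427) was lost without any of 6 single arrays, at 0.29 to 0.47, and kept only without NoRX replicate 2 or DIFF replicate 2. Pdk4, of the kinase that shuts off pyruvate oxidation, was well above background on no array.

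Thioesterases release free fatty acids from coenzyme A. Acot1, of the cytosolic enzyme, had levels of 1.27, 1.29 and 1.23 in NoRX, 1.12, 0.92 and 1.15 in CM, and 3.75 and 3.53 in DIFF. DIFF was 5.19-fold above NoRX (2.38 ± 0.10, adjusted p = 7.43e-09) and 5.96-fold above CM (2.58 ± 0.10, adjusted p = 2.03e-09), and CM did not pass against NoRX (-0.20 ± 0.09, adjusted p = 0.0734). Acot2, of the mitochondrial enzyme, had levels of -0.37, -0.23 and -0.37 in NoRX, -0.81, -0.80 and -0.74 in CM, and 0.47 and 0.08 in DIFF. No groups overlapped, with CM 1.37-fold below NoRX (-0.45 ± 0.10, adjusted p = 0.00354) and DIFF 2.08-fold above CM (1.06 ± 0.12, adjusted p = 1.36e-05). DIFF was 1.52-fold above NoRX (0.60 ± 0.12, adjusted p = 0.00154), which was lost with slide row as a block (0.56, adjusted p = 0.0903). Acot1 and Acot2 are near-identical neighbours, and whether their probes tell them apart was not tested.

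Of 5 peroxisomal members 3 were tested, and the gene of the bifunctional enzyme, Ehhadh, and Acot4 were well above background on no array. Pex11a, whose product helps peroxisomes divide, ranged from 2.71 to 2.74 in NoRX, 3.04 to 3.08 in CM and 3.12 to 3.35 in DIFF. It was 1.26-fold higher in CM (0.33 ± 0.07, adjusted p = 0.00239), which was lost with slide row as a block (0.32, adjusted p = 0.0563), and 1.42-fold higher in DIFF (0.51 ± 0.08, adjusted p = 0.00038), each against NoRX. The thiolase genes Acaa1a and Acaa1b, close copies of each other, passed against NoRX in neither medium, at -0.20 to 0.19. Acaa1b was 1.26-fold lower in DIFF than in CM (-0.33 ± 0.09, adjusted p = 0.00904), and this was -0.21 without DIFF replicate 2 and was lost with median centring (-0.16) and with array weights.

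Of 3 perilipin genes, whose products coat lipid droplets, 2 were tested and Plin5 was well above background on no array. Plin4 ranged from 3.96 to 4.09 in NoRX, 4.55 to 4.61 in CM and 3.70 to 3.99 in DIFF. It was 1.49-fold higher in CM than in NoRX (0.58 ± 0.08, adjusted p = 0.000131) and 1.68-fold lower in DIFF than in CM (-0.75 ± 0.09, adjusted p = 3.02e-05). Plin2 ranged from 6.63 to 6.74 in NoRX, 6.33 to 6.45 in CM and 5.76 to 6.06 in DIFF, and was 1.71-fold lower in DIFF than in NoRX (-0.77 ± 0.09, adjusted p = 4.84e-05). Its difference between DIFF and CM (-0.50 ± 0.09) was lost with median centring (-0.32, adjusted p = 0.0554). Side by side, the median difference of DIFF from NoRX was 0.74 for uptake and binding, -0.51 for acyl-CoA synthesis, -0.04 for the mitochondrial members, -0.14 for the peroxisomal and -0.47 for the droplet members, and -0.10 for all genes. Those of CM from NoRX were 0.25, 0.71, -0.02, 0.19 and 0.15, and 0.01 for all genes. Those of DIFF from CM were -0.05, -0.30, -0.09, -0.21 and -0.62, and -0.11 for all genes. The steps hold between 2 and 16 tested genes, and differences between steps were not tested.

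**Figure D2:**
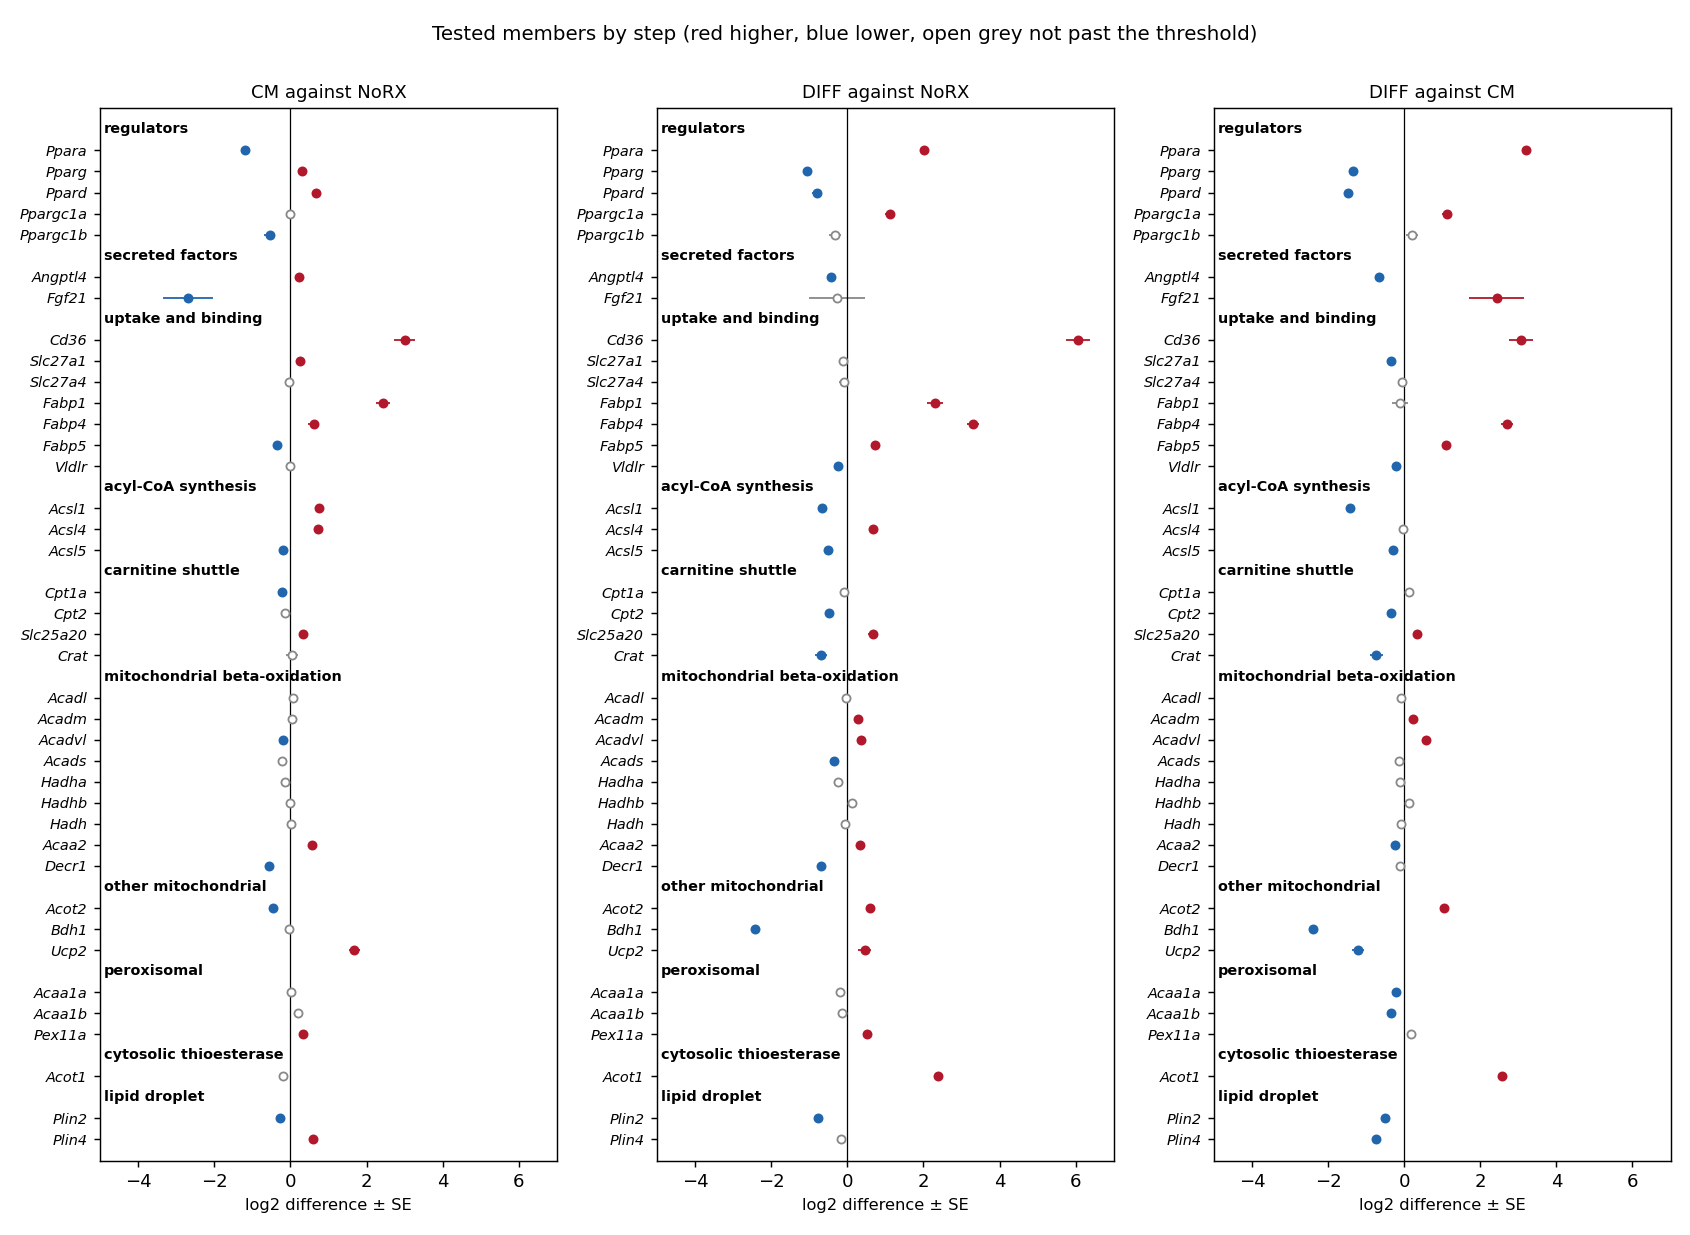
Fitted log2 difference ± SE of the 39 tested members in the 3 comparisons, by step, in red where higher, blue where lower and open grey where not past the threshold. The widest differences were those of Cd36, Fabp4, Ppara and Acot1 among genes higher in DIFF and of Bdh1 among genes lower in DIFF, while the mitochondrial beta-oxidation genes stayed between -0.68 and 0.57.

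**Figure D3:**
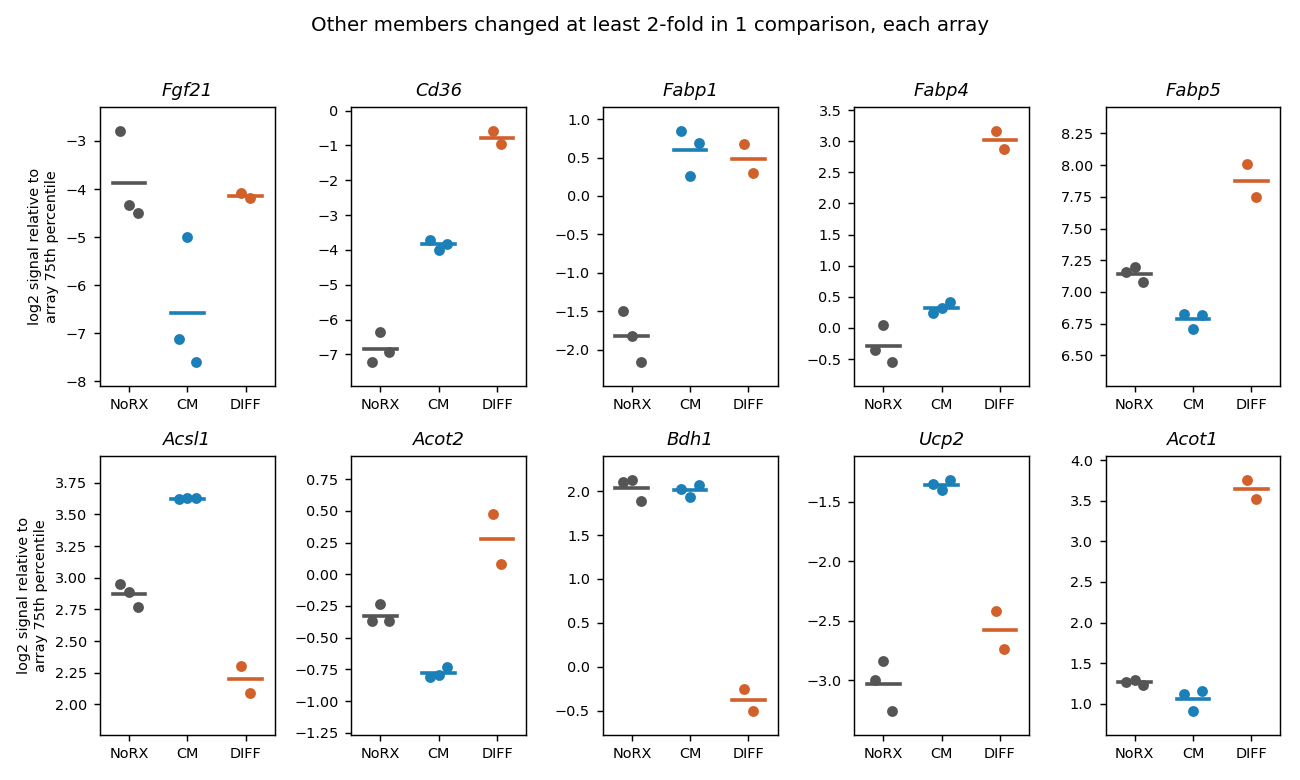
Level on each array, as log2 signal relative to the array's 75th percentile, of the 10 other members that changed at least 2-fold in at least 1 comparison, with bars for group means and a scale of its own in each panel. Cd36 rose from NoRX to CM to DIFF, Fabp1 was alike in CM and DIFF, and Acsl1 and Ucp2 were highest in CM.

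The calls of some members were small and did not hold when single arrays were left out. In CM against NoRX, those of Acadvl (-0.20), Acsl5 (-0.20) and Slc27a1 (0.25) were lost when any of the 6 compared arrays was left out, that of Cpt1a (-0.21) for all but CM replicate 3, and that of Slc25a20 (0.32) without NoRX replicate 3 or any CM array. Those of Angptl4 (0.23) and Plin2 (-0.28) were lost without NoRX replicate 1, CM replicate 1 or CM replicate 3, and without NoRX replicate 2 or CM replicate 1. Over these 7 genes the values without those arrays lay between -0.25 and 0.33. In DIFF against NoRX, Acadm (0.27) was lost without any NoRX array (0.26 to 0.28), and was 0.13 with DIFF replicate 1 left out and 0.42 with replicate 2 left out. Acads (-0.34) was lost without NoRX replicates 1 or 2 or DIFF replicate 2 (-0.34 to -0.15), and Vldlr (-0.25) without any of 6 arrays (-0.25 to -0.13), NoRX replicate 3 and DIFF replicate 1 being the exceptions. In DIFF against CM, Acaa1a (-0.21), Acadm (0.23) and Vldlr (-0.23) were each lost without any of 7 arrays, at -0.24 to -0.08, 0.09 to 0.25 and -0.25 to -0.11. The exception was DIFF replicate 1 for Acaa1a and Vldlr and DIFF replicate 2 for Acadm. Slc25a20 (0.35) was lost without any CM array or DIFF replicate 1 (0.15 to 0.35), Acaa2 (-0.24) without any CM array (and it was -0.13 without DIFF replicate 2), and Cpt2 (-0.34) without DIFF replicate 2 (-0.17). Without DIFF replicate 2 the values of Acsl5 (-0.30) and Slc27a1 (-0.35) there were -0.19 and -0.20. Both calls were lost with median centring (-0.13, adjusted p = 0.407, and -0.18, adjusted p = 0.223, limma). They were also lost within row 2 (adjusted p = 0.138 and 0.14), and that of Slc27a1 with array weights (adjusted p = 0.078).

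The calls that held under every alternative numbered 12 of 24 in CM against NoRX, 17 of 27 in DIFF against NoRX and 15 of 27 in DIFF against CM. In CM against NoRX they were those of Acaa2, Acot2, Acsl1, Acsl4, Cd36, Decr1, Fabp1, Fgf21, Plin4, Ppara, Ppard and Ucp2. In DIFF against NoRX they were those of Acot1, Acsl1, Acsl4, Acsl5, Bdh1, Cd36, Decr1, Fabp1, Fabp4, Fabp5, Pex11a, Plin2, Ppara, Ppard, Pparg, Ppargc1a and Slc25a20. In DIFF against CM they were those of Acadvl, Acot1, Acot2, Acsl1, Angptl4, Bdh1, Cd36, Fabp4, Fabp5, Plin4, Ppara, Ppard, Pparg, Ppargc1a and Ucp2. The calls of Cd36 against NoRX and of Fgf21 in CM against NoRX set a bright group against background signals.

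Beyond the 45 members, 87 further genes of the same pathway were listed by function, and 77 were tested. Of these, 30 were higher and 13 lower in CM than in NoRX (median 0.11), against 26.9% and 25.3% of all genes. In DIFF against NoRX 20 were higher and 25 lower (median -0.04), against 14% and 28.1%, and in DIFF against CM 16 and 33 (median -0.20), against 23.6% and 35.6%. Some genes tested were above background on no array of a group, such as Cyp4a12a, Cyp4a12b and Cyp4a14 in NoRX. They passed the filter only through groups where they were bright, so that their part of the counts is no separate result. Genes among the 4 of each direction with the largest differences are named. In CM against NoRX the highest were Cidea, of a droplet protein (10.7-fold), Fabp6, of the bile acid binding protein of the ileum (5.16-fold), Pnpla3, of a droplet lipase (4.30-fold, and 1.13 on the log2 scale in place of 2.11 with the normexp background), and Cyp4a12a, of fatty acid omega-hydroxylation (at least 1.30-fold, lost with the normexp background at 0.25). The lowest were Acsl3 (-1.10 ± 0.09), Acadsb (-0.93 ± 0.09), the monoglyceride lipase gene Mgll (-0.91 ± 0.09) and the intestinal form Fabp2 (-0.82 ± 0.07).

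Of the 4 genes of microsomal omega-oxidation, Cyp4a10 was above background on all arrays and was higher in DIFF than in NoRX (1.65 ± 0.22, adjusted p = 9.6e-05). It is named after its values were seen. The other 3 were above background on no NoRX array and were tested through the groups where they were bright, so that their count is no result. Among them Cyp4a14, a known target of PPARα, rose at least 1.62-fold and Cyp4a12a at least 1.91-fold, and both calls were lost with slide row as a block and with array weights. The hormone-sensitive lipase gene Lipe was at -2.67, -2.74 and -2.95 in NoRX, -0.90, -1.16 and -1.22 in CM, and -2.01 and 1.93 in DIFF, so that its difference of 2.75 was 0.78 with DIFF replicate 2 left out and 4.72 with replicate 1 left out. The lowest in DIFF against NoRX were Fabp2 (-4.22 ± 0.08, 18.6-fold), Mgll (-2.82), Acsbg1 (-2.10 ± 0.08) and Acsl3 (-1.99 ± 0.10).

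In DIFF against CM the highest included Cyp4a14 (at least 1.67-fold, lost with array weights), Acox2, of the peroxisomal oxidase of bile acid precursors (5.62-fold, 2.49 ± 0.11), and Acot5 (2.31 ± 0.19, and 1.07 as the mean of its probes). The lowest were Cidea (-5.17 ± 0.18, with 1 of 2 DIFF arrays above background), Fabp6 (-3.50 ± 0.30), Fabp2 (-3.41 ± 0.08) and Pnpla3 (-2.83 ± 0.21, with 1 of 2 DIFF arrays above background). With the normexp background the differences of Cidea, Fabp6 and Pnpla3 were -2.79, -2.01 and -0.99.

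**Figure D4:**
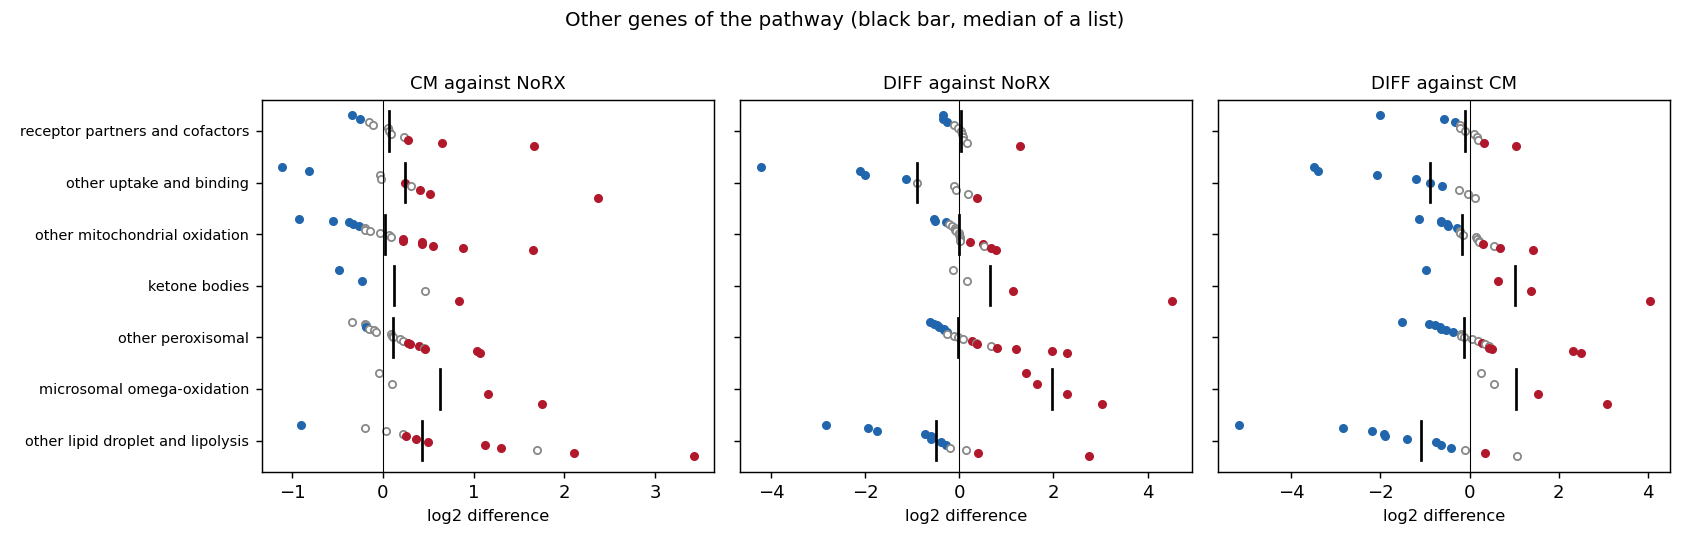
Fitted log2 differences of the 77 further pathway genes tested, by function, in red where higher, blue where lower and open grey where not past the threshold, with a black bar at each list's median and a scale of its own in each panel. In DIFF against NoRX the droplet and lipolysis genes had 8 lower and 2 higher of 12, against 28.1% and 14% of all genes, and 3 of the 4 genes of microsomal omega-oxidation were above background on no NoRX array.

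All 12 markers of liver progenitors and hepatocytes, the labelled cell type, were above background on all 8 arrays. Most were called changed in the comparisons with NoRX. Of them 4 were higher and 7 lower in CM against NoRX, against 26.9% and 25.3% of all genes. The counts were 3 and 8 in DIFF against NoRX (14% and 28.1% of all genes). In DIFF against CM they were 4 and 2 (23.6% and 35.6%), and 6 did not pass. The mean level of Alb was -3.51 in NoRX, -0.22 in CM and 5.36 in DIFF, and that of Afp 1.26, 1.75 and 3.45. Epcam lay at -0.76, 0.47 and -2.60 and Sox9 at 1.31, 0.81 and -0.33. The part of such changes in those of the members was not tested.

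Because Fabp4, Pparg and Cd36 are also known from adipocytes, macrophages and endothelial cells, the markers of those cells are given. The shares of all genes beside their counts are those given for the liver markers. Of 7 adipocyte markers, Adipoq, Lep and Plin1 were above background on no array and Cidec and Lipe on all 8. Retn and Cfd, also tested, were above background on 2 arrays each, Cfd on no NoRX array. Against NoRX, 1 of the 4 tested was higher in DIFF (Lipe, which is also a pathway gene above) and 1 lower (Cidec, -1.93). Their median of 0.68 lies between Retn and Cfd and so rests on signals at or near background. In CM against NoRX 2 of these 4 were higher and none lower (median 0.98), and there too Cfd was set against background signals. Of 6 macrophage markers with a probe, Adgre1 and Lyz2 were above background on no array and Csf1r, Cd14 and Mrc1 on all 8, and these 3 were higher in CM and lower in DIFF than in NoRX. Mrc1 had mean levels of 4.41 in NoRX, 4.81 in CM and 0.0011 in DIFF. Of 7 endothelial markers, Tek, Tie1 and Emcn were above background on no array and Pecam1 and Kdr on all 8, and in DIFF against NoRX none of the 4 tested was higher and 1 lower. In CM against NoRX 1 of these 4 was higher and none lower (median -0.03). Of 7 markers of stellate cells and fibroblasts, Pdgfrb and Lrat were above background on no array and Des on all 8. Of the 5 tested, 1 was higher and 1 lower in CM against NoRX, and none higher and 2 lower in DIFF against NoRX. The summed linear level, which weights bright probes most, was 24.5 to 27.2 in NoRX, 29.3 to 31.9 in CM and 7.50 to 9.98 in DIFF for the adipocyte markers, and 25.8 to 28.4, 37.4 to 39.3 and 4.27 to 5.47 for the macrophage markers. It was 10.1 to 12.2, 10.5 to 11.4 and 7.87 to 9.33 for the endothelial markers and 0.575 to 0.585, 1.27 to 1.57 and 0.223 to 0.344 for those of stellate cells and fibroblasts. The part of these cells in the results was not tested. Fewer cells of a type and less RNA per cell cannot be told apart in such samples.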

How the data were processed

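Cy3-labelled RNA was hybridised to 8 Agilent SurePrint G3 arrays on 1 slide, per the labels. The deposited scanner files give a linear intensity per spot, from Agilent Feature Extraction 11.0.1.1 (per the submitters' processing notes), after background subtraction and detrending within the array (per the file headers). Intensities in the deposited series table were identical (largest difference 0).

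Signals were scaled to the 75th percentile of their array on the log2 scale. Controls and outlier-marked spots were dropped, and replicate spots averaged. Of 55681 probes, 27235 matched a RefSeq accession, 28446 did not and were left out. The brightest probe stood for a gene with several, and genes well above background on at least 2 arrays were tested. Levels at or near background and the number of arrays limit the precision.

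One limma 3.58.1 fit in R 4.3.3 (lmFit, eBayes with a mean-variance trend, two-sided, Benjamini-Hochberg over all genes, threshold 0.05) held all 8 arrays, so that all groups share 1 estimate of the spread. The functions were tested on simulated data. Alternatives were other normalizations, backgrounds, filters, probe rules, slide row, array weights, the groups compared alone, leaving out each array, and the DIFF arrays averaged, since a label numbers both as replicate 1. The scanner files used here have no mean signal, so the normexp background (offset 50) used the median signal.

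Full values are given for the 5 regulators and for members changed at least 2-fold in at least 1 comparison, for the other members as ranges and examples, and for further pathway genes for at most 4 per direction and comparison. The members, lists and rules were chosen with earlier results of these data known. 1 further pathway gene that the rule names is not reported here.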

Additional observations from a re-analysis of the deposited data

How the results depend on the processing

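Each called difference of a member kept its direction in every alternative run for it, which were 22 (CM or DIFF against NoRX) or 23 (DIFF against CM), and 21 or 22 for Cd36 and Fgf21, which a stricter filter left out. Several of these leave a difference as it is and could not turn it. Among them are the identical series table, the fit without a mean-variance trend, the groups compared alone, the averaged DIFF arrays and leaving out an array of the third group. With slide row as a block, CM against NoRX gave 4796 changed genes in place of 7328, 8 higher members in place of 14 and 4 lower in place of 10, and DIFF against NoRX gave 2802 genes in place of 5908 and 7 lower members in place of 12. Array weights gave 3038 genes in DIFF against NoRX, and 5385 in place of 8305 with 9 lower members in place of 16 in DIFF against CM. Within row 2 the lower members there were 8, and with median centring also 8. Lower members in CM against NoRX were 6 with median centring and 6 with the normexp background. Leaving out 1 array at a time gave, for CM against NoRX, 6109 to 9309 genes, 11 to 15 higher and 6 to 14 lower members (6 without NoRX replicate 2 or CM replicate 1) and medians of -0.01 to 0.02. For DIFF against NoRX it gave 4729 to 8487 genes, 13 to 16 higher, 10 to 21 lower (21 without DIFF replicate 1) and medians of -0.23 to 0.05. For DIFF against CM it gave 7342 to 9788 genes, 8 to 14 higher, 13 to 22 lower and medians of -0.25 to 0.078 (0.078 without DIFF replicate 2). Among the members given in full, signs turned only for differences that did not pass. In CM against NoRX, Ppargc1a turned to 0.21 (mean of probes) and 0.088 (row block and within row 1), and lay between -0.063 and 0.041 with 1 array left out, and Bdh1 between -0.106 and 0.0091. In DIFF against NoRX, Fgf21 turned to 0.19 and Ppargc1b to 0.014 with the normexp background, and Fgf21 lay between -0.58 and 0.27 with 1 array left out. In DIFF against CM, Fabp1 turned to 0.06 (median centring) and 0.011 (row block and within row 2), and lay between -0.30 and 0.082 with 1 array left out, and Ppargc1b between -0.0086 and 0.44. Causes were not tested. The deviations of same-numbered arrays from their group means correlated between -0.06 and 0.17. Deviations within such small groups depend on one another, so that these values cannot decide whether the numbers pair samples. With the replicate block the genes changed were 6867, 5284 and 7766 and the members 13 higher and 7 lower, 13 and 12, and 10 and 14, in the order given above.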

Other observations

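Several members have more than 1 probe on the array, and some of these differed from the brightest, which stands for the gene. The other probe of Ppargc1a gave 0.44, 1.79 and 1.35 for CM against NoRX, DIFF against NoRX and DIFF against CM, so that the difference between CM and NoRX was near 0 on 1 probe only. The other probe of Decr1 gave -0.91, -0.02 and 0.89, where the probe used gave -0.56, -0.68 and -0.12, and its order of CM and DIFF thus turned with the probe. The 3 probes of Bdh1 gave -2.42, -2.43 and -2.28 in DIFF against NoRX. The other probe of Acsl1 gave 1.19, -0.68 and -1.87, in the same directions as the probe used. The other probe of Cpt2 turned the sign in CM against NoRX (0.04, against -0.14), and that of Vldlr in DIFF against CM (0.10, against -0.23).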
